A study of Mus musculus with 6 samples.

Results

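Zinc handling was followed through 10 genes in fully grown mouse oocytes that lacked Lsd1: the metallothioneins Mt1, Mt2 and Mt4, the metal-sensing transcription factor Mtf1, the zinc exporters Slc30a1, Slc30a3 and Slc30a9, and the zinc importers Slc39a5, Slc39a6 and Slc39a10. They are 10 of the 23284 gene symbols in the count tables. They were chosen by symbol and by the difference in count that they showed between the genotypes in these same libraries, so that their fold changes and adjusted p-values describe the chosen genes and support nothing beyond them. The Lsd1 KO group held 3 samples and the Control group 3, each of 100 germinal vesicle oocytes, which rest in meiotic prophase. All donors were females of mixed C57BL/6-129 strain aged 4 to 6 weeks, primed with gonadotrophin (5 IU) 48 hours before collection. The sources used here give neither the promoter that drove the deletion nor the alleles of the Control females or the number of females behind a sample. The comparison asks which transcripts differ in the oocyte when LSD1, a histone lysine demethylase encoded by Kdm1a, is absent.

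Zinc is a structural and catalytic ion that cells keep at a very low free concentration. Metallothioneins are small cysteine-rich proteins that bind zinc and copper, SLC39A (ZIP) proteins carry zinc into the cytosol, and SLC30A (ZnT) proteins move it out of the cytosol, to the outside or into vesicles and organelles. MTF1 senses free zinc and, when zinc is high, binds metal response elements in the promoters of Mt1, Mt2 and Slc30a1 and raises their transcription. In the mouse, the oocyte takes up zinc as it matures, in part through ZIP6 and ZIP10, and releases zinc to the outside at fertilisation.

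Promoter sequences are shown for the 3 metallothionein genes and for Slc30a1, because MTF1 acts on such promoters in other tissues and these genes differed from each other in the oocytes. Each window runs from 250 bases before to 50 bases after the annotated start, 5′ to 3′ on the coding strand, from RefSeq on GRCm38.p6, and each was found once, letter for letter, in NCBIM37, the assembly of mm9. Capitals mark matches, on either strand, of the core of the metal response element, searched as TGCACNC and TGCGCNC. The Mt1 window lies at chr8:96702739-96703038, that of Mt2 at chr8:96696268-96696567, that of Mt4 at chr8:96660854-96661153 and that of Slc30a1 at chr1:193730410-193730709, all on the plus strand.
Mt1: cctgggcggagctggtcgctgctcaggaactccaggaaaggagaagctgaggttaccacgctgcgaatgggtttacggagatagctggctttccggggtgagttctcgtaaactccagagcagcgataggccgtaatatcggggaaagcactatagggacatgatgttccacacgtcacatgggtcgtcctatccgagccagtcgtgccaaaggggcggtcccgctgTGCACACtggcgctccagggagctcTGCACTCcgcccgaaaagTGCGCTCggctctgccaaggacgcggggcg
Mt2: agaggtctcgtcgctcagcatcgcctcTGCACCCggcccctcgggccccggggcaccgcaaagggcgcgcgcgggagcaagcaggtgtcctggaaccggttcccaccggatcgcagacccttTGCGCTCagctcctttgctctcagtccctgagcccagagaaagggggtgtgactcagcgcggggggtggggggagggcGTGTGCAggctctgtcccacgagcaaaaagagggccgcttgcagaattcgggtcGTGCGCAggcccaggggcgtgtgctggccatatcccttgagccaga
Mt4: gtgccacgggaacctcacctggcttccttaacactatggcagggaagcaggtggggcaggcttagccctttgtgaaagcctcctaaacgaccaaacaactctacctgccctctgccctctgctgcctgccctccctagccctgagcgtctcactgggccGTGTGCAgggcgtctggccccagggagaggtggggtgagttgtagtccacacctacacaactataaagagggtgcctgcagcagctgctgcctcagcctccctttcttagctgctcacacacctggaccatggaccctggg
Slc30a1: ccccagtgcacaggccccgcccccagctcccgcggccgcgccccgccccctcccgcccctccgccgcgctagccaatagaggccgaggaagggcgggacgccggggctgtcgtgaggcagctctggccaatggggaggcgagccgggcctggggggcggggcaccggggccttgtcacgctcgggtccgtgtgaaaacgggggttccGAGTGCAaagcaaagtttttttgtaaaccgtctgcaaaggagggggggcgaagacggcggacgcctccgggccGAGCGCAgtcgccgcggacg

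In these windows Mt1 held 3 matches, Mt2 held 4, Slc30a1 held 2 and Mt4 held 1, and no match overlapped another. Of 32851 promoter windows of the same length, 25.7% held at least 1 match, 7.11% at least 2, 1.97% at least 3 and 0.517% at least 4. The 3 matches of Mt1 had their first base at positions -23, 3 and 21 relative to the annotated start, and those of Mt2 at -223, -128, -50 and 5. Windows were also found for Mtf1, Slc30a3, Slc30a9, Slc39a5 and Slc39a10. Slc30a3 and Slc39a5 had 1 match each in the first of 2 windows, and Mtf1, Slc30a9 and Slc39a10 had none. A match is a run of letters and not a bound site. The share of G and C in the window was 60.7% for Mt1, 67.7% for Mt2, 60.3% for Mt4 and 73% for Slc30a1. GENCODE also lists an Mt1 transcript that starts at position 96703111, downstream of the window shown. The bases between that window and this second start were not searched.

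The libraries carried 10735422 to 13035045 counts in genes and 15762 to 16815 symbols with a count. Kdm1a itself was at 3.77, 2.80 and 3.23 CPM in Lsd1 KO libraries, against 73.9, 72.5 and 44.4 CPM in Control libraries (log2 fold change -4.28 ± 0.27, edgeR adjusted p = 4.58e-06). CPM is the count of a gene relative to its library total, scaled by the trimmed mean of M values (TMM). All 12 oocyte markers were measured in every library, and 5 of the 6 red-cell markers, the globins among them, were at 0 everywhere. The remaining red-cell marker, Alas2, was at 0.510 ± 0.289 CPM in Lsd1 KO, against 1.29 ± 0.717 CPM in Control (SD, n = 3). Whether globin reads could be assigned to 1 gene and counted was not checked, so these 0 counts do not show that red cells were absent. The oocyte markers summed to 34743 to 38137 CPM in Lsd1 KO, against 23614 to 28047 CPM in Control. These sums did not overlap, but without Gdf9, an oocyte growth factor gene at 15558 ± 1264 CPM in Lsd1 KO, against 6057 ± 830.4 CPM in Control (SD, n = 3), they were 20261 to 22772 CPM in Lsd1 KO, against 16598 to 22478 CPM in Control. The 10 immune markers summed to 135, 9.83 and 96.5 CPM in Lsd1 KO, against 32.7, 5.80 and 38.4 CPM in Control, and Lsd1 KO replicate 2 had 6 of them at 0. The 12 granulosa markers summed to 402 to 475 CPM in Lsd1 KO, against 139 to 155 CPM in Control; without the aromatase gene Cyp19a1 these sums were 70.9 to 163 CPM in Lsd1 KO, against 105 to 110 CPM in Control. The 9 theca and stromal markers summed to 10.6 to 14.4 CPM in Lsd1 KO, against 2.03 to 3.25 CPM in Control, most of it Dcn in Lsd1 KO. The granulosa and theca sums thus differed by genotype without overlap, as did 6 of the 10 zinc genes, and their part in the values of those genes was not tested.

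Among the 10 genes, 4 passed as higher in Lsd1 KO (Mt1, Mt4, Slc30a3 and Slc39a5), 2 passed as lower (Mtf1 and Slc30a1) and 4 stayed short of the threshold (Mt2, Slc30a9, Slc39a6 and Slc39a10). All 10 passed the filter on low counts. Over the whole table, edgeR's quasi-likelihood test called 21.3% of 12935 genes at an adjusted p under 0.05, 11% higher and 10.3% lower. The Lsd1 KO and Control libraries did not overlap in CPM for 6 of the 10 genes, where 38.7% of all genes tested did not overlap. The median log2 fold change of the 10 was 0.58, beside -0.01 over all genes tested. Each log2 fold change sets Lsd1 KO over Control and stands with its SE (n = 3 per genotype), and p-values are adjusted by Benjamini-Hochberg over all genes tested. In these bulk samples a change in the share of cells of a type and a change in RNA per cell cannot be told apart.

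**Figure D1:**
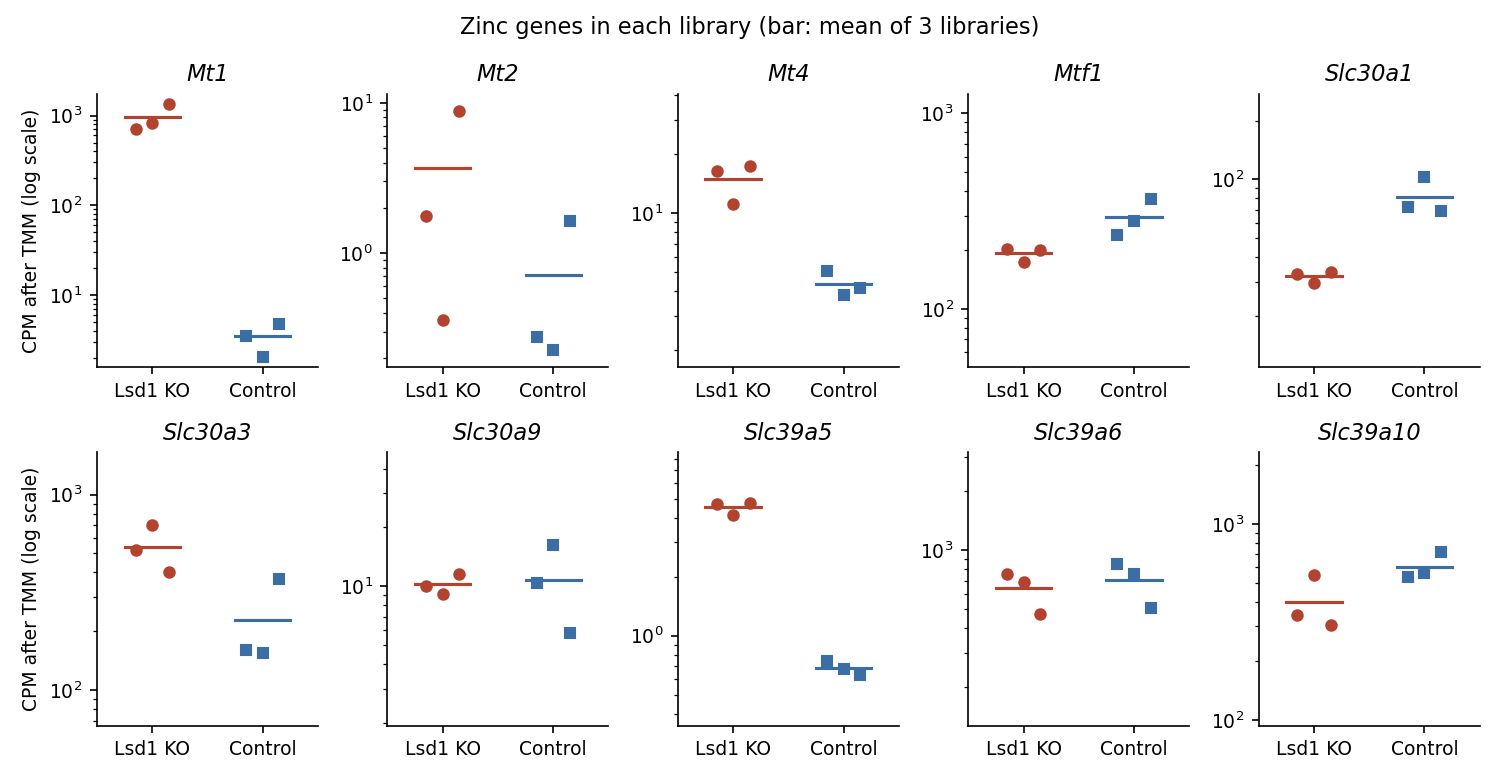
CPM after TMM (log scale, with a separate range in each panel) of the 10 zinc genes in the 3 Lsd1 KO libraries (circles) and the 3 Control libraries (squares), with bars at the means. Mt1, Mt4, Slc30a3 and Slc39a5 lie wholly above, and Mtf1 and Slc30a1 wholly below, the Control libraries.

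Mt1, the most widely expressed metallothionein, was the transcript with the largest log2 fold change of all 12935 genes tested. It was at 713, 832 and 1357 CPM in Lsd1 KO libraries, against 3.51, 2.03 and 4.79 CPM in Control libraries. The groups lay far apart, and the lowest Lsd1 KO library was still above the highest Control library. The mean in Lsd1 KO was 281 times that in Control (log2 8.14 ± 0.38, adjusted p = 4.00e-07). Mt1 alone made up 0.0721% to 0.140% of all counts in Lsd1 KO, against 2.07e-04% to 4.50e-04% in Control. The gene spans chr8:96702989-96704225 in NCBIM37, Mt2 chr8:96696518-96697467 and Mt4 chr8:96661104-96662931.

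Mt2, whose protein has the same zinc-binding role and whose gene ends 5521 bases before Mt1 begins, did not follow at that scale. It had 22, 4 and 99 counts in Lsd1 KO libraries, against 3, 3 and 18 counts in Control libraries. These are 1.76, 0.361 and 8.89 CPM in Lsd1 KO, against 0.277, 0.226 and 1.63 CPM in Control, so the groups overlapped and replicate 3 was the highest in both. The log2 fold change was 2.37 ± 1.02 (adjusted p = 0.117), and without the filter on low counts Mt2 passed as higher (adjusted p = 0.0262). Without Lsd1 KO replicate 3 it was 0.64 and without Lsd1 KO replicate 2 it was 2.88 with an adjusted p of 0.0366, and without Control replicate 3 it was 3.80. The count of Mt1 was 404, 2306 and 153 times that of Mt2 in Lsd1 KO libraries, against 12.7, 9 and 2.94 times in Control libraries.

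Within Lsd1 KO, Mt2 was lowest where the immune marker sum was lowest, but it was not highest where that sum was highest. It kept the order of the granulosa sum without Cyp19a1, which was 89.0, 70.9 and 163 CPM in Lsd1 KO replicates 1 to 3. In Control, where the granulosa sum without Cyp19a1 was 110, 106 and 105 CPM, Mt2 did not keep that order. Lsd1 KO replicate 1 had the highest immune sum, 135 CPM, with Mt2 at 1.76 CPM. Lsd1 KO replicate 3 had an immune sum of 96.5 CPM with Mt2 at 8.89 CPM, and replicate 2 had 9.83 CPM with Mt2 at 0.361 CPM. Control replicates 1 and 2 had immune sums of 32.7 and 5.80 CPM and 3 Mt2 counts each. Control replicate 3 had an immune sum of 38.4 CPM and 18 Mt2 counts. Mt1 in Lsd1 KO replicate 2 was at 832 CPM, in a library that had the lowest immune sum of its genotype. Its granulosa sum, 475 CPM, was the highest of its genotype with Cyp19a1, itself at 405 CPM there. Without Cyp19a1 that sum was 70.9 CPM, the lowest of its genotype. The part of other cells in the metallothionein values was not tested.

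**Figure D2:**
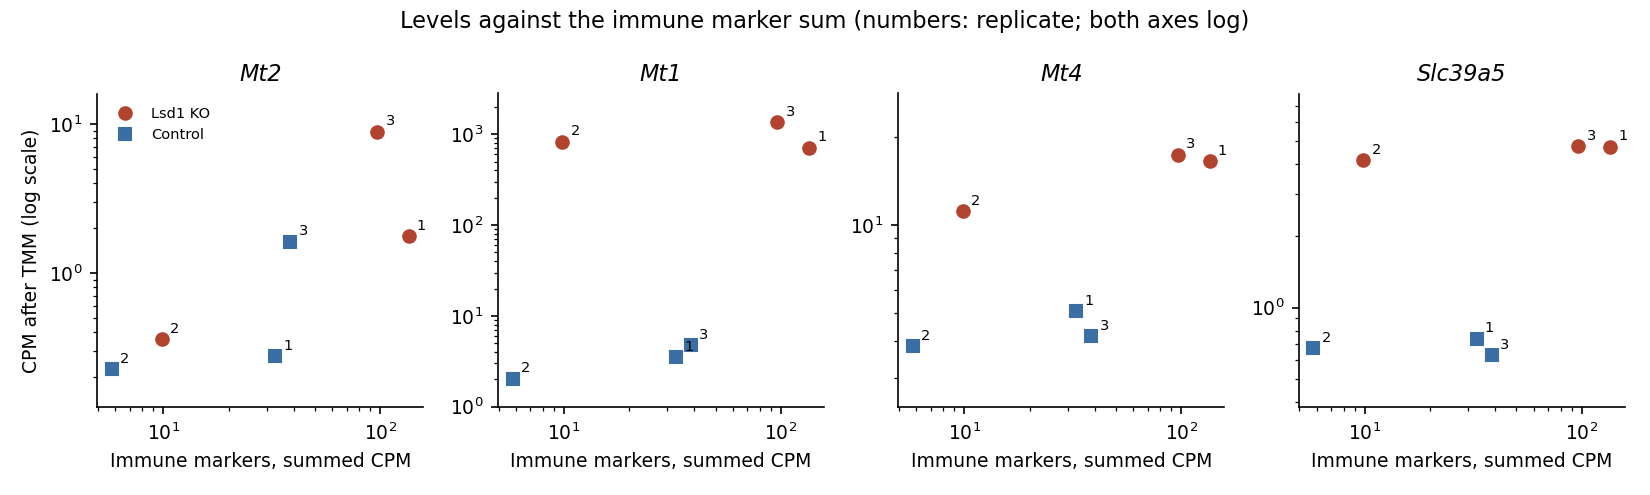
CPM of Mt2, Mt1, Mt4 and Slc39a5 against the summed CPM of 10 immune markers in each library (both axes log, numbers are replicates). Immune sums span 9.83 to 135 CPM in Lsd1 KO and 5.80 to 38.4 CPM in Control, Mt2 overlaps between the genotypes, and Mt1, Mt4 and Slc39a5 do not.

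Mt4, the metallothionein known from stratified squamous epithelium, was higher in Lsd1 KO at a low level. It was at 16.5, 11.2 and 17.4 CPM in Lsd1 KO libraries, against 5.09, 3.84 and 4.15 CPM in Control libraries. Every Lsd1 KO library lay above every Control library, with a log2 fold change of 1.79 ± 0.31 (adjusted p = 0.00223). Per kilobase of exon, the order of levels in Lsd1 KO oocytes was Mt1 at 1284 ± 455 CPM per kb, Mt4 at 38.5 ± 8.61 and Mt2 at 6.60 ± 8.22 (SD, n = 3). In Control oocytes Mt4 was the highest at 11.2 ± 1.66 CPM per kb, then Mt1 at 4.58 ± 1.83 and Mt2 at 1.28 ± 1.43 (SD, n = 3). Mt3, the metallothionein of brain, had 0 counts in all 6 libraries. A count of 0 allows up to 3 counts, or 0.226 to 0.277 CPM by library, for counting error only.

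The metallothionein genes form a cluster between Bbs2 and Nup93, read in the order Mt4, Mt3, Mt2 and Mt1, all on the plus strand. Mt1 and Nup93 are 34271 bases apart, and Bbs2 and Mt4 are 38392 bases apart. Nup93, which encodes a nuclear pore scaffold protein, was higher in Lsd1 KO, at 188, 257 and 172 CPM against 110, 115 and 139 CPM in Control (log2 0.77 ± 0.19, edgeR adjusted p = 0.0155). It did not pass without Lsd1 KO replicate 2, Control replicate 1 or Control replicate 2 (adjusted p = 0.0695, 0.0703 and 0.0560). Bbs2, a subunit of the ciliary BBSome, was at 22.1 ± 3.08 CPM in Lsd1 KO, against 28.5 ± 7.72 CPM in Control (SD, n = 3; log2 -0.37 ± 0.24, edgeR adjusted p = 0.301). The other neighbours, Ogfod1 and Herpud1, did not pass, with means of 25.5 and 1.51 CPM in Lsd1 KO, against 21.1 and 0.656 CPM in Control, and the miRNA gene Mir138-2 and the transporter gene Slc12a3 were not tested. The longest run that the Mt1 and Mt2 transcripts share is 20 bases, and no other place in NCBIM37 matched a metallothionein transcript at 90% identity over 100 bases, so no copy was found at that limit with which these genes could share reads.

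**Figure D3:**
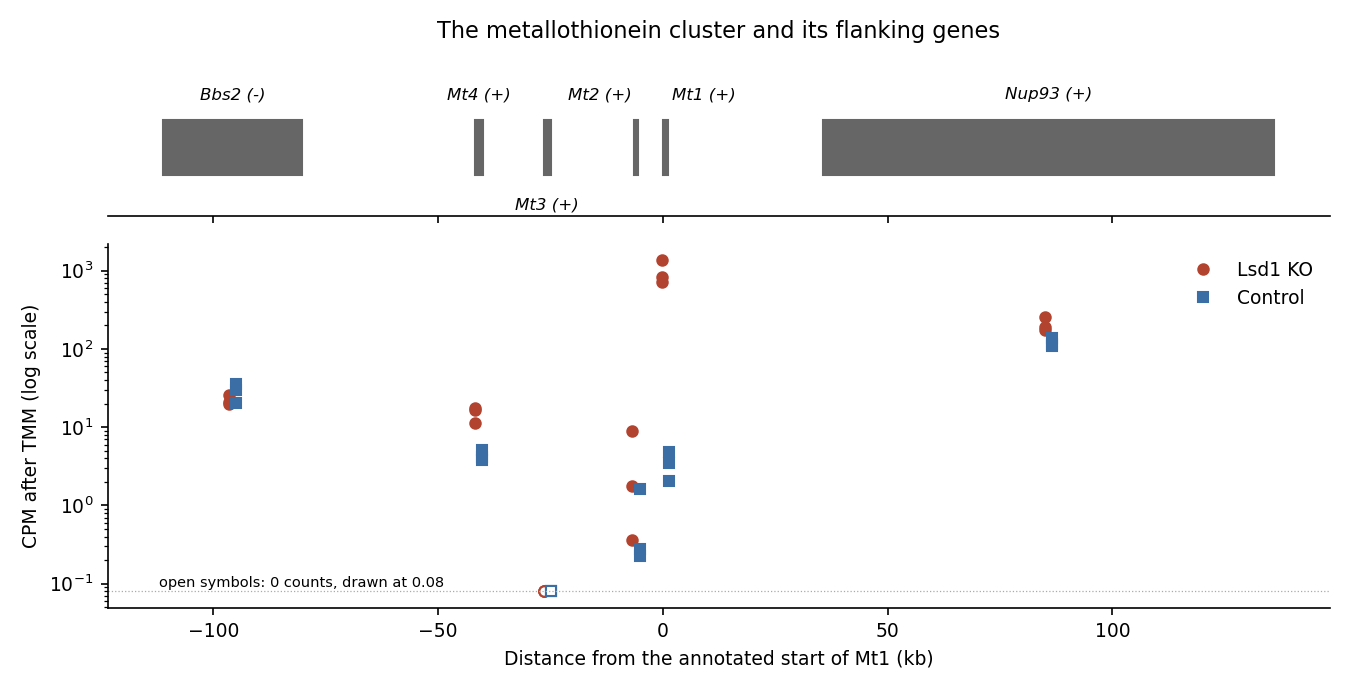
Genes of the metallothionein cluster by distance from the annotated start of Mt1 in kilobases (top, strand in brackets) and their CPM after TMM in each library (bottom, log scale). Mt1 spans the widest gap between Lsd1 KO and Control libraries, Mt2 overlaps, and Mt3 had 0 counts.

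Mtf1, the factor that drives metallothionein genes in response to zinc, moved the other way. It was at 203, 174 and 199 CPM in Lsd1 KO libraries, against 238, 281 and 365 CPM in Control libraries, from a gene at chr4:124479348-124527044 in NCBIM37. The groups did not overlap and the log2 fold change was -0.62 ± 0.19 (adjusted p = 0.0368). The call was lost without Lsd1 KO replicate 1, 2 or 3 (adjusted p = 0.100, 0.0930 and 0.0938) and without Control replicate 2 or 3 (0.0781 and 0.0881). On the opposite strand, 1110065P20Rik overlaps an Mtf1 exon, and without stated strand use reads of the pair cannot be told apart. Its level was 0.254 CPM in Lsd1 KO, against 0.556 CPM in Control.

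The other factors known to act on metallothionein promoters did not pass. Beside Mtf1, all 5 of the glucocorticoid receptor Nr3c1, Usf1, Usf2, Nfe2l2 and Stat3 were tested. By edgeR, DESeq2 and limma-voom 0 of the 5 passed, and 0 had an unadjusted p under 0.05. Stat3 was at 123 ± 12 CPM in Lsd1 KO, against 125 ± 21 CPM in Control, and Usf2 at 49.6 ± 4.35 CPM in Lsd1 KO, against 45.5 ± 8.95 CPM in Control (SD, n = 3). Of 6 tested targets of the glucocorticoid receptor, 1 was lower by edgeR and 5 did not pass, where 10.3% of all genes tested were lower. DESeq2 and limma-voom each called 1 higher (Fkbp5) and 1 lower. The lower one was the phosphatase gene Dusp1, at 104 ± 34.4 CPM in Lsd1 KO, against 202 ± 61.1 CPM in Control (SD, n = 3; log2 -0.96 ± 0.27, adjusted p = 0.0233). The Dusp1 call did not hold without Lsd1 KO replicate 1 or 2, nor without Control replicate 2 or 3 (adjusted p = 0.0775, 0.0647, 0.0595 and 0.0706). Fkbp5, a glucocorticoid-induced chaperone gene, was at 224 ± 9.07 CPM in Lsd1 KO, against 145 ± 56.4 CPM in Control (SD, n = 3; log2 0.63 ± 0.24, adjusted p = 0.0777 by edgeR, 0.0415 by DESeq2 and 0.0487 by limma-voom), and the clock gene Per1 was at 22.7 ± 6.25 CPM in Lsd1 KO, against 18.1 ± 1.75 CPM in Control.

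Of the exporters, Slc30a1 encodes ZnT1, the exporter of the plasma membrane that MTF1 induces together with metallothioneins in other cells, and lies at chr1:193730646-193737126. It was at 32.9, 29.5 and 33.8 CPM in Lsd1 KO libraries, against 72.4, 102 and 69.4 CPM in Control libraries. Every Lsd1 KO library lay below every Control library, and the mean was 2.54 times higher in Control (log2 -1.35 ± 0.20, adjusted p = 9.80e-04). Slc30a1 and Mt1, both classical MTF1 targets, therefore differed between genotypes in opposite directions. An exon of 1700034H15Rik overlaps Slc30a1 from the other strand, with a level of 0.670 CPM in Lsd1 KO, against 1.79 CPM in Control.

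Slc30a3 encodes ZnT3, known for loading zinc into synaptic vesicles, lies at chr5:31388479-31395988 and was the main exporter transcript of these oocytes. It was at 520, 701 and 401 CPM in Lsd1 KO libraries, against 161, 155 and 368 CPM in Control libraries. The groups did not overlap, but Control replicate 3 came close to the lowest Lsd1 KO library. The log2 fold change was 1.24 ± 0.32 (adjusted p = 0.0157). The call was lost without Lsd1 KO replicate 2, Control replicate 1 or Control replicate 2 (adjusted p = 0.0575, 0.0796 and 0.0600), and by DESeq2 (0.0524). Without Control replicate 3 the log2 fold change was the highest of the fits that left out a library, at 1.76.

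Slc30a9, whose protein ZnT9 sits in mitochondria, was at 10.1, 9.11 and 11.6 CPM in Lsd1 KO libraries, against 10.4, 16.3 and 5.78 CPM in Control libraries. The Lsd1 KO libraries fell inside the Control range (log2 -0.08 ± 0.36, adjusted p = 0.895). The sign was not settled. Without Control replicate 2 the log2 fold change was 0.36, and with all libraries it was 0.0091 by limma-voom and 0.0266 with a replicate block. The gene lies at chr5:67698194-67749804.

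Of the importers, Slc39a6 and Slc39a10 encode ZIP6 and ZIP10, the zinc importers described in mouse oocytes, from genes at chr18:24738382-24762318 and chr1:46864389-46910891. Slc39a6 was at 759, 692 and 475 CPM in Lsd1 KO libraries, against 849, 760 and 510 CPM in Control libraries. The ranges overlapped almost wholly, with replicate 3 lowest in both genotypes (log2 -0.14 ± 0.23, adjusted p = 0.705), and without Lsd1 KO replicate 3 the log2 fold change was 0.065. Slc39a10 was at 341, 549 and 304 CPM in Lsd1 KO libraries, against 536, 560 and 716 CPM in Control libraries. Lsd1 KO replicate 2 reached the Control range and the other two Lsd1 KO libraries lay below it (log2 -0.60 ± 0.23, adjusted p = 0.0822). Without that replicate the log2 fold change was -0.93 with an adjusted p of 0.0125, and DESeq2 on all libraries gave 0.0455.

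Slc39a5 encodes ZIP5, an importer known from the basolateral membrane of intestine and pancreas, and lies at chr10:127832990-127838280. It had 59, 46 and 53 counts in Lsd1 KO libraries, against 8, 9 and 7 counts in Control libraries, which is 4.73, 4.15 and 4.76 CPM in Lsd1 KO, against 0.740, 0.678 and 0.632 CPM in Control. Replicates of both genotypes lay close together and the groups were well separated (log2 2.72 ± 0.49, adjusted p = 0.00275). Its gene overlaps Ankrd52, on the opposite strand, without shared exon sequence. The level of Ankrd52 was 22.6 CPM in Lsd1 KO, against 39.4 CPM in Control. Per kilobase, Slc39a5 stayed a minor importer, at 2.12 ± 0.161 CPM per kb in Lsd1 KO, against 0.319 ± 0.0252 in Control (SD, n = 3).

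Read per kilobase of exon, few genes carried each role. Slc39a6 and Slc39a10 together made up 91.3% to 94.7% of the summed importer level in Lsd1 KO, against 94.8% to 96.6% in Control. Slc39a6 was above Slc39a10 in each library. Slc39a1 and Slc39a9 came next and did not differ beyond their spread, at 4.52 ± 1.05 and 3.34 ± 0.858 CPM per kb in Lsd1 KO, against 3.17 ± 1.97 and 4.51 ± 0.437 CPM per kb in Control (SD, n = 3), and their order changed between libraries of both genotypes. Slc30a3 made up 85.7% to 90.1% of the exporter sum in Lsd1 KO, against 58.8% to 79.8% in Control. Slc30a1 was the fourth exporter in Lsd1 KO at 6.11 ± 0.429 CPM per kb, and in Control the third at 15.5 ± 3.49, where it did not differ beyond its spread from Slc30a4 at 17 ± 0.779 (SD, n = 3).

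Summed over the families per kilobase of exon, importer transcript levels were below exporter levels in each Lsd1 KO library and above them in each Control library. The order in Lsd1 KO rests on the division by exon length. In CPM without it, importers were above exporters in every library. Importers summed to 1147, 1293 and 831 CPM in Lsd1 KO, against 1428, 1377 and 1264 CPM in Control. Exporters summed to 671, 876 and 554 CPM in Lsd1 KO, against 385, 410 and 585 CPM in Control. The 14 importers summed to 258, 277 and 183 CPM per kb in Lsd1 KO libraries, against 310, 296 and 254 CPM per kb in Control libraries. The 9 exporters with a count summed to 281, 372 and 224 CPM per kb in Lsd1 KO libraries, against 124, 126 and 221 CPM per kb in Control libraries, and Slc30a8, the exporter of islet secretory granules, had 0 counts in all 6. The ratio of importer to exporter transcript levels was thus 0.918, 0.742 and 0.819 in Lsd1 KO, against 2.50, 2.34 and 1.15 in Control, and the groups did not overlap. These sums per kilobase follow Slc30a3, Slc39a6 and Slc39a10 and carry no test. RefSeq also places a promoter window of Slc30a3 (chr5:31410568-31410867) and one of Slc39a10 (chr1:46982572-46982871) outside the GENCODE spans that gave the exon lengths. The lengths of both genes, and with them the ratio, are therefore uncertain. Metallothionein transcripts summed to 992 to 1862 CPM per kb in Lsd1 KO, against 12.9 to 19.9 CPM per kb in Control. Per kilobase, they were above both transporter sums in each Lsd1 KO library and below both in each Control library. In CPM without the division, they summed to 731, 843 and 1383 in Lsd1 KO, above both transporter sums in replicate 3 only.

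**Figure D4:**
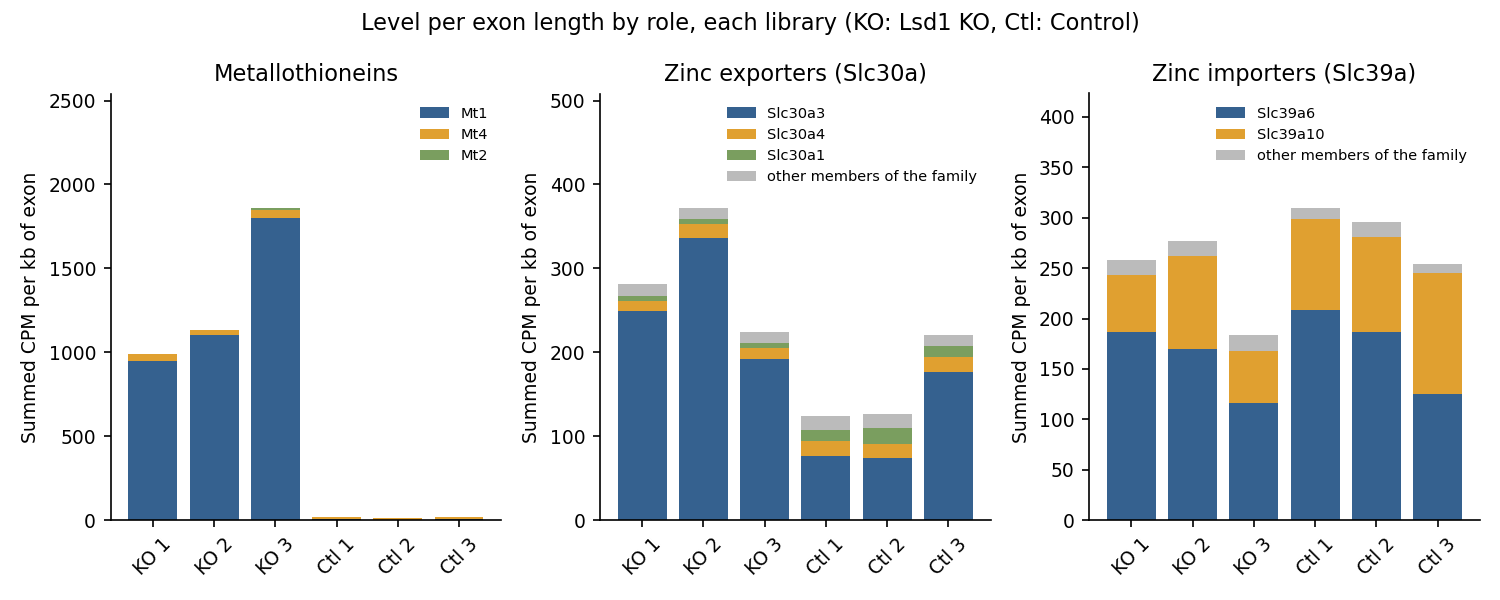
Summed CPM per kilobase of exon for metallothioneins, Slc30a exporters and Slc39a importers in each library, as stacked bars from 0 with the leading genes in colour. Mt1 fills most of the metallothionein bars of Lsd1 KO, and Slc39a6 and Slc39a10 most of the importer bars. Slc30a3 is the largest part of each exporter bar, at 85.7% to 90.1% in Lsd1 KO, against 58.8% to 79.8% in Control.

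Beyond the genes above, the transporters of both families stayed short of the threshold by edgeR with the filter on low counts. Of 24 Slc30a and Slc39a genes, 17 were tested, with 2 higher, 1 lower and 14 short of the threshold, and the 3 that passed are among the genes described above. Over all 12935 genes tested, 11% were called higher and 10.3% lower. Of the 18 other transporters, 11 were tested and none passed by edgeR, whose adjusted p ran from 0.0660 to 0.962. An unadjusted p under 0.05 was reached by 1 higher and 2 lower of them, DESeq2 called 1 (Slc30a2) and limma-voom called 0. Their log2 fold changes ran from -2.52 to 1.04, 7 below 0 and 4 above, with a median of -0.26. Slc30a2, a vesicular exporter known from mammary gland, had the lowest of these values, at 0.516 ± 0.406 CPM in Lsd1 KO, against 3.01 ± 2.54 CPM in Control (SD, n = 3; log2 -2.52 ± 0.92, edgeR adjusted p = 0.0660). Control replicate 3 was at 0.361 CPM, inside the Lsd1 KO range, and without it the adjusted p was 0.0164. The most abundant of these other transporters were Slc30a4 at 77.9 ± 14.3 CPM in Lsd1 KO, against 93.4 ± 4.27 CPM in Control, and Slc30a5 at 30.5 CPM in Lsd1 KO, against 29.7 CPM in Control. Slc39a4, the zinc importer of intestine, was below the filter with 44, 8 and 21 counts in Lsd1 KO, against 5, 8 and 1 counts in Control, and without the filter it passed as higher (log2 fold change 2.35, edgeR adjusted p = 0.0471).

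**Figure D5:**
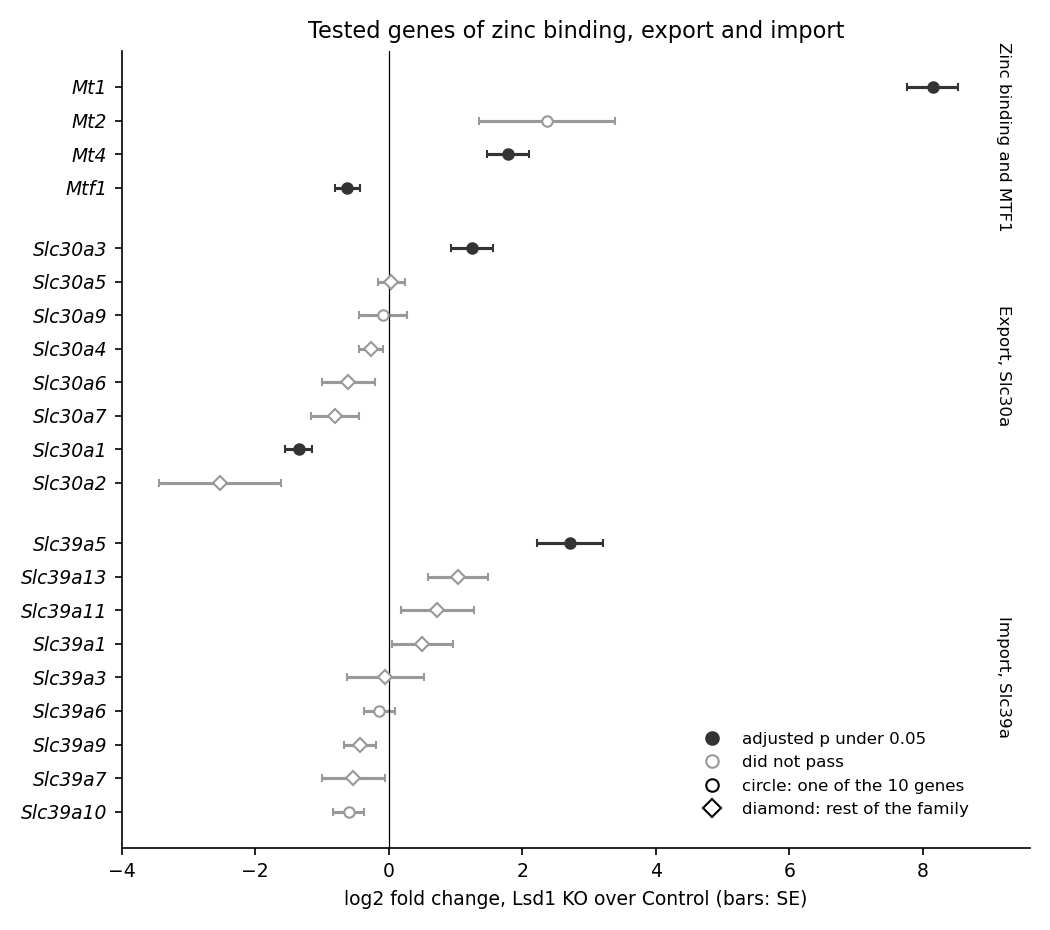
Log2 fold changes of Lsd1 KO over Control with SE for Mtf1 and the tested metallothioneins, Slc30a exporters and Slc39a importers. Filled symbols had an adjusted p under 0.05. Circles are the 10 genes, chosen in part by their difference in these libraries, and diamonds the other members of the families. Mt1 stands far to the right at 8.14 and no diamond is filled.

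Other genes reported as MTF1 targets gave 1 higher by edgeR and 3 that did not pass, of 4 tested, where 11% of all genes tested were higher. Slc40a1, the iron exporter ferroportin, was at 3.53, 0.902 and 3.23 CPM in Lsd1 KO libraries, against 0.462, 0.151 and 0.813 CPM in Control libraries (log2 2.43 ± 0.77, adjusted p = 0.0383). Its Lsd1 KO levels moved with the immune markers, whose part was not tested, and the call was lost without Lsd1 KO replicate 1 or 3 or Control replicate 1 or 2 (adjusted p = 0.148, 0.114, 0.122 and 0.139) and with limma-voom (0.0700). Sepw1, a selenoprotein gene, was at 61.9 ± 25.8 CPM in Lsd1 KO, against 60.3 ± 11.1 CPM in Control, and Csrp1, a LIM-domain protein gene, at 31.9 ± 10.8 CPM in Lsd1 KO, against 33.4 ± 7.68 CPM in Control (SD, n = 3).

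Metallothioneins also bind copper. Of 10 tested copper-handling genes 3 were lower and 7 did not pass by edgeR, where 10.3% of all genes tested were lower. DESeq2 and limma-voom each called 3 lower and 1 higher. The list was chosen with earlier results of these data known, so these counts describe its genes only. The metalloreductase genes Steap4 and Steap2 fell by 1.08 ± 0.20 and 0.92 ± 0.20 on the log2 scale (edgeR adjusted p = 0.00343 and 0.00768). Steap4 was at 21.9, 18.4 and 26.9 CPM in Lsd1 KO libraries, against 43.3, 51.4 and 47.5 CPM in Control libraries. Atp7a, the copper-exporting ATPase, was at 70.8 ± 5.45 CPM in Lsd1 KO, against 118 ± 25.1 CPM in Control (SD, n = 3; log2 -0.73 ± 0.19, edgeR adjusted p = 0.0174). Steap2 lost the call without Lsd1 KO replicate 1 (adjusted p = 0.0522), and Atp7a without Lsd1 KO replicate 1 or 3 (0.0663 and 0.0503). The higher one was Slc31a2, a copper transporter gene, at 88.6, 106 and 87.2 CPM in Lsd1 KO libraries, against 61.1, 43.4 and 79.0 CPM in Control libraries. Its groups did not overlap (log2 0.62 ± 0.22, adjusted p = 0.0634 by edgeR, 0.0389 by DESeq2 and 0.0496 by limma-voom). The copper importer Slc31a1 was at 115 ± 19.2 CPM in Lsd1 KO, against 107 ± 73.2 CPM in Control, and the copper chaperone Cox17 at 136 ± 9.16 CPM in Lsd1 KO, against 125 ± 25.4 CPM in Control (SD, n = 3).

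Among 9 tested genes of iron handling, 3 were higher and 6 did not pass by edgeR, where 11% of all genes tested were higher. This list too was chosen with earlier results of these data known. Mcoln1, the lysosomal cation channel that releases iron and zinc, was at 31.3, 29.7 and 28.5 CPM in Lsd1 KO libraries, against 12.7, 14.7 and 13 CPM in Control libraries (log2 1.15 ± 0.21, edgeR adjusted p = 0.00290). It kept the call with each single library left out. The haem oxygenase gene Hmox1, which metals and oxidants induce, was at 4.58 ± 1.71 CPM in Lsd1 KO, against 1.42 ± 0.154 CPM in Control (SD, n = 3; log2 1.68 ± 0.47, edgeR adjusted p = 0.0245). Its adjusted p was 0.121 without Lsd1 KO replicate 3, 0.0645 without Control replicate 1 and 0.0704 without Control replicate 2, and without Control replicate 3 it sat at the threshold, on the side not called. Ftl1, the ferritin light chain, whose count is uncertain because the mouse genome holds near-identical copies of it, was higher by log2 1.08 ± 0.33 (edgeR adjusted p = 0.0355), at 118, 48.2 and 149 CPM in Lsd1 KO, against 52.8, 37.4 and 58.8 CPM in Control. Lsd1 KO replicate 2, poorest in immune markers, overlapped Control, and the call was lost without Lsd1 KO replicate 1 or 3 or Control replicate 1 or 2 (adjusted p = 0.0929, 0.142, 0.0924 and 0.118) and with limma-voom (0.0676). The part of the immune markers was not tested. Ncoa4 and Ireb2, the highest of the list in CPM, were at 498 and 272 CPM in Lsd1 KO, against 588 and 226 CPM in Control. Neither passed. Per kilobase of exon, the ferritin heavy chain gene Fth1 was the highest. It was at 302 ± 127 CPM per kb in Lsd1 KO, against 250 ± 48.6 in Control (SD, n = 3), and did not pass (edgeR adjusted p = 0.538).

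Fbxo43, which encodes the zinc-binding meiotic inhibitor EMI2, was at 182 ± 17.6 CPM in Lsd1 KO, against 145 ± 16.5 CPM in Control (SD, n = 3; log2 0.33 ± 0.17, edgeR adjusted p = 0.193). Across the 6 libraries, the 5 genes whose log2 CPM was most like that of Mt1 among 8639 genes were Glo1, Rnft1, Arid3c, Egln2 and Msr1, with Pearson's r of 0.998 to 0.995. The 6 libraries form 2 genotype groups, and such values describe these libraries only. Glo1, the glyoxalase that detoxifies methylglyoxal, was at 127, 120 and 168 CPM in Lsd1 KO libraries, against 24.7, 21.5 and 27.7 CPM in Control libraries. It was highest in replicate 3 of each genotype and lowest in replicate 2, and Mt1 shared the first feature in Lsd1 KO and both in Control. The genes most like Mt2 were Cacna2d3, Riok3, Mrpl42, the complement gene C1qb and the granulosa marker Inha, with r of 0.993 to 0.964 over the 6 libraries. Inha was at 21.7, 12.5 and 51.6 CPM in Lsd1 KO libraries, against 10.7, 7.61 and 15.2 CPM in Control libraries.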

How the data were processed

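Each sample's file holds raw read counts per gene symbol, deposited by the authors. TopHat2 2.0.7, HTSeq 0.5.3p9, CASAVA 1.8.2 and mm9 are named in the submitters' processing notes. The sources used here state no options, annotation or strand use, so overlapping genes on opposite strands may share counts. Per the labels' protocols, oocytes were lysed directly and their RNA was amplified to cDNA (NuGEN Ovation).

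Genes passing filterByExpr (minimum count 10) numbered 12935. After TMM scaling, Lsd1 KO was set against Control in edgeR 4.0.16 (R 4.3.3) with the two-sided quasi-likelihood F test, and p-values were adjusted over every gene tested (Benjamini-Hochberg). SE came from the fitted coefficient and F. The fit was checked on simulated data. Alternatives used DESeq2 1.42.0 and limma 3.58.1. Totals of 10735422 to 13035045 counts set the precision. Replicates are the 3 biological replicates of the series design, and p-values measure the spread between these samples.

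Positions and union exon lengths came from GENCODE M1 on NCBIM37, and promoter windows from RefSeq on GRCm38.p6, with motifs searched in Python 3.11.15. Copies were searched with BLAST+ 2.17.0. Same-numbered replicates were not paired in the main fit.

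The members and gene lists were chosen with earlier results of these data known. Named were the members, Kdm1a and list genes past the threshold (up to 4 a list) with the 2 others highest in CPM. Also named were the genes beside the cluster, and the 5 genes most like Mt1 and Mt2 with at least 10 CPM in a genotype. Slc39a4, Slc30a2, Slc31a2, Fth1, Alas2, Cyp19a1, Dcn and Gdf9 were named after their values were seen.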

Additional observations from a re-analysis of the deposited data

How the results depend on the processing

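All 15 alternatives kept the direction and the call of Mt1, Mt4 and Slc30a1, and so did the 14 that tested Slc39a5, which the filter of 10 CPM in 3 libraries removed along with Mt2. Their log2 fold changes ran from 7.85 to 8.45, 1.70 to 1.94, -1.46 to -1.13 and 2.65 to 2.76. Of 148 values of the 10 genes, 128 kept direction and side of the threshold, 12 lost the call, 4 gained it and 4 changed sign. The sign changed for Slc30a9 with limma-voom (0.0091), with the replicate block (0.0266) and without Control replicate 2 (0.36; with a library left out, -0.40 to 0.36), and for Slc39a6 without Lsd1 KO replicate 3 (0.065; with a library left out, -0.34 to 0.065). The cause was not tested. Among 10 genes, the number lower was 1, Slc30a1, both with the block and at an adjusted p under 0.01. Mtf1 lost the call in both settings, with an edgeR adjusted p of 0.0672 with the block.

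Over all genes, 676 were higher and 497 lower at an adjusted p under 0.01. With each library left out, the number higher ran from 932 to 1466 and the number lower from 638 to 1346. Leaving out Control replicate 1 gave the 932. Lower calls came to 638 when Lsd1 KO replicate 1 was left out, 727 for Lsd1 KO replicate 3 and 781 for Control replicate 2. Among the 10 genes, with a library left out, the number higher ran from 3 to 4 and the number lower from 1 to 2. Without a filter 5 were higher, since Mt2 passed. In the Slc30a and Slc39a families, the number higher was 3 without a filter, where Slc39a4 passed, 1 with the DESeq2 Wald test, 1 with a filter of 10 CPM in 3 libraries, 1 at an adjusted p under 0.01, and 1 to 2 with a library left out. The number lower was 3 with the DESeq2 Wald test, 2 without a filter, and 1 to 2 with a library left out.

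In the labels, same-numbered replicates share only a number. Their deviations from the group means correlated at -0.03, 0.11 and -0.02, and replicate 2 alone correlated best with its own number. Lsd1 KO replicate 3 and Control replicate 1 correlated at 0.13. With so few libraries, these values cannot tell whether same-numbered replicates shared a batch. The block gave 1270 higher and 1098 lower genes, against 1421 and 1329 without it. Scaling moved the median of all genes by under 0.1 on the log2 scale. Depth limits Mt2, with 3 to 99 counts a library.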
